A study of Homo sapiens with 6 samples.

Results

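The genes examined here are 51 genes of DNA replication and S phase, chosen by symbol from a list ordered by the steps of replication: origin licensing, the helicase and its activation, the polymerases, the clamp and its loader, and the supply of nucleotides. All 51 have a row among the 23459 genes of the count table, and all 51 passed the low-count filter. They were measured in Raji, an established Burkitt's lymphoma line, Epstein-Barr virus-positive, that the labels trace to the germinal centre (GC). One group of 3 libraries carried the lentiviral hairpin OBF1sh1 against OBF1 (POU2AF1), a B cell coactivator of the Oct factors, and the other 3 carried the non-target hairpin SHC002. Both groups were exposed to virus for 5 days and then selected for 7 days in 3 µg/ml puromycin, so puromycin selection and a lentiviral insertion are shared by all libraries. The knockdown rests on 1 hairpin in 1 cell line. Whether replicates were grown or infected separately is not stated in the labels, so the p-values reflect only how far these libraries differ, possibly for technical reasons.

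A cell licenses its origins before S phase, when the origin recognition complex, CDC6 and CDT1 load the ring-shaped MCM2-7 helicase onto DNA. The kinases DDK (CDC7 with DBF4) and CDK then recruit CDC45 and GINS to start the helicase. Polymerase alpha with primase lays the first primers, and polymerases delta and epsilon extend them, tethered by the PCNA clamp. Most of these genes are classical targets of E2F transcription factors and are transcribed in late G1 and S phase, which makes them common markers of proliferation in lymphoma. RNA from bulk cells cannot tell fewer cells in S phase from less transcript in each of them.

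POU2AF1 itself held 512, 516 and 512 CPM in the control libraries and 244, 241 and 241 CPM in the OBF1 shRNA libraries, where CPM is the count scaled to a common library size (counts per 1e6) after composition scaling with TMM, the trimmed mean of M values. The targeted transcript was thus 2.12-fold lower (edgeR quasi-likelihood adjusted p = 1.25e-17). Libraries held 29569281 to 32612429 counts. All 8 listed B cell markers were expressed, summing to 2672 to 2745 CPM in control and 4423 to 4479 CPM in OBF1 shRNA libraries. Most of that difference was MS4A1, at 702 ± 14.5 and 2078 ± 16.04 CPM (SD, n = 3), while CD79B was called lower (664 ± 24.9 and 609.5 ± 22.2 CPM, SD, n = 3, edgeR adjusted p = 0.00151). Markers of myeloid cells (10 genes) summed to 1.90 to 2.11 and 2.01 to 2.20 CPM, those of T and NK cells (10 genes) to 0.192 to 0.268 and 0.879 to 1.02 CPM, and those of the 293T packaging cells (10 genes) to 0.222 to 0.506 and 0.0638 to 0.0984 CPM. At 0 in every library were S100A9, MPO and CD163 of the first list, CD3D, CD2, CD5 and GNLY of the second, and KRT18, KRT19, NEFM, CDH2 and SIX2 of the third.

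Replication genes shifted by small amounts in both directions. Of the 51, 17 were higher in OBF1 shRNA cells, against 37.5% of all tested genes, 24 were lower, against 37.9%, and 10 did not pass (edgeR, quasi-likelihood; p adjusted by Benjamini-Hochberg over 12010 genes, threshold 0.05). In all, 41 members were called, or 80.4%, where the share over all tested genes was 75.4% and over the 8768 tested genes averaging 10 CPM or more it was 80.2%. The share called is thus close to the background. These shares are also the background for the counts by step and by complex given below. The libraries of both groups did not overlap for 43 members, where this held for 76.6% of all tested genes.

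The sizes were modest. No member changed by as much as 1.5-fold with TMM scaling, whereas 12.9% of all tested genes were at least 1.5-fold higher and 10.4% at least 1.5-fold lower, together 23.3%. Among tested genes averaging 10 CPM or more that share was 15.9%, and the means of the 51 genes in control libraries ran from 15.6 CPM for CCNE1 to 935 CPM for MCM7. The member furthest down was CDC7, the catalytic subunit of DDK, at 1.40-fold lower, and the furthest up was CCNE1, encoding cyclin E1, at 1.39-fold higher. The median log2 fold change of the 51 was -0.03, beside -0.01 for all tested genes, and the median size of change was 0.16, beside 0.29. Both medians for all tested genes include genes below 10 CPM and were not matched to the level of the members. When glmTreat tested each fold change against 1.5, 0 of 51 passed, and 0 did at an unadjusted p under 0.05. The 0 for changes of at least 1.5-fold also held with DESeq2 and limma-voom, but not with library sizes alone, where CDC7 and PRIM1 passed 1.5-fold, as did 24.9% of all tested genes.

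**Figure D1:**
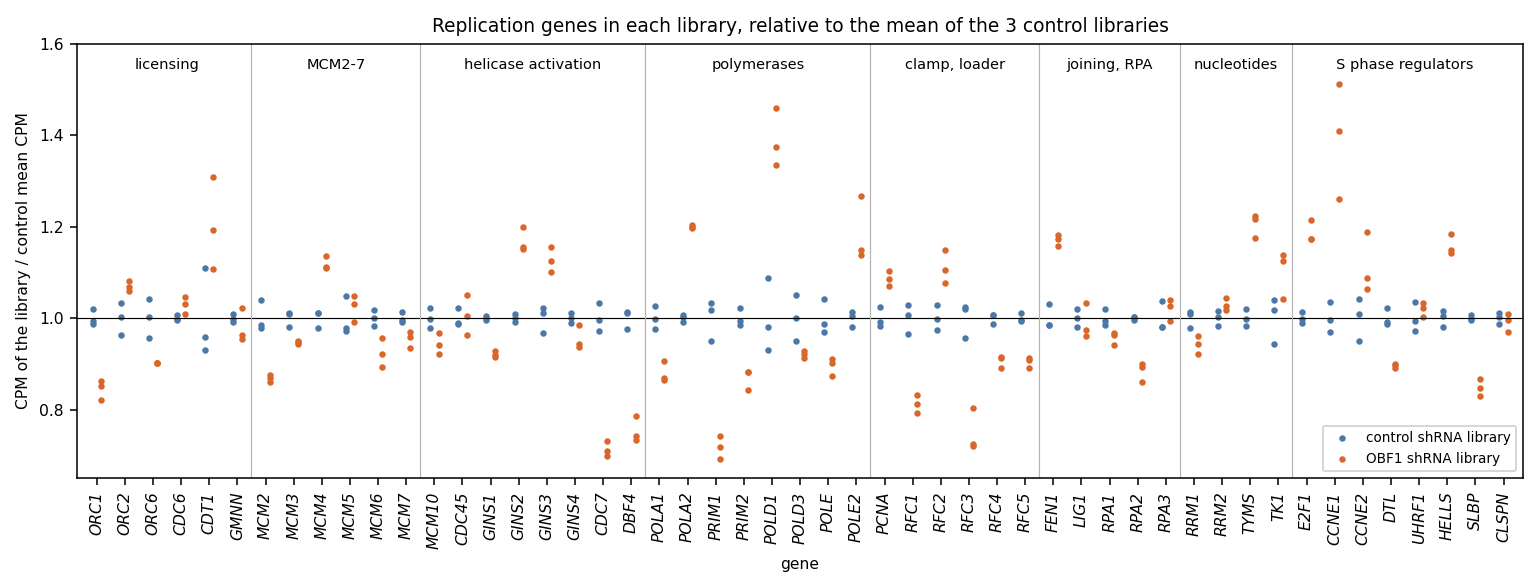
Each point is 1 library: its CPM (TMM-scaled) divided by the mean CPM of the 3 control libraries, for 51 replication genes along the horizontal axis, grouped by step. CDC7, DBF4, PRIM1 and RFC3 sit below the control libraries by the widest margins, POLD1 and CCNE1 above them by the widest, and for most other genes the OBF1 shRNA libraries lie within 20% of the control mean.

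**Figure D2:**
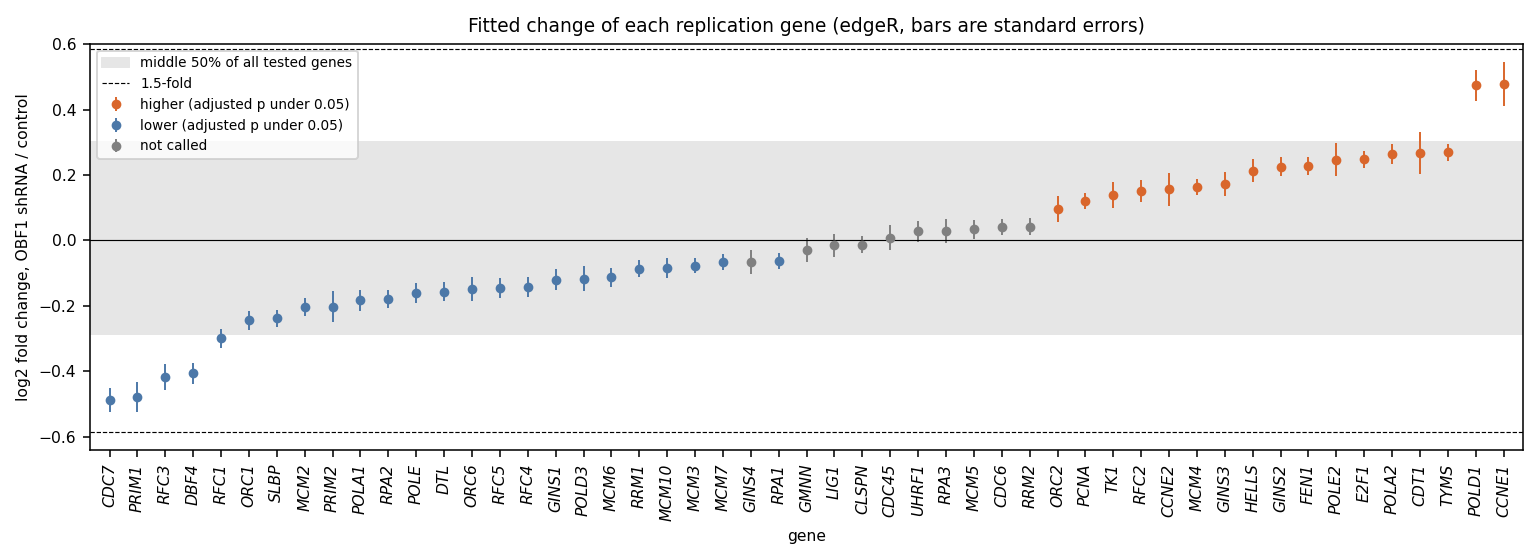
Fitted log2 fold change of OBF1 shRNA over control for the 51 genes in rising order, with standard errors as bars and colour for the test result. Every gene lies between the dashed lines at 1.5-fold, and most lie inside the grey band, -0.29 to 0.30, that holds the middle 50% of all tested genes.

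Direction depended in part on how libraries were scaled. The 51 genes took 0.960% to 0.972% of all counts in control libraries and 0.885% to 0.890% in OBF1 shRNA libraries, and by that measure the groups did not overlap. After TMM scaling, which corrects for the composition of the libraries, they summed to 9196, 9414 and 9289 CPM in control and 9201, 9189 and 9260 CPM in OBF1 shRNA libraries, which overlap. With library sizes alone all genes moved by -0.11 on the log2 scale, and the calls became 11 members higher and 34 lower, beside 28.9% and 48.1% of all tested genes with that scaling. None of the members called with both scalings changed direction. Lost as higher were ORC2, GINS3, PCNA, RFC2, TK1 and CCNE2, and the 10 genes that had not passed were all called lower.

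**Figure D3:**
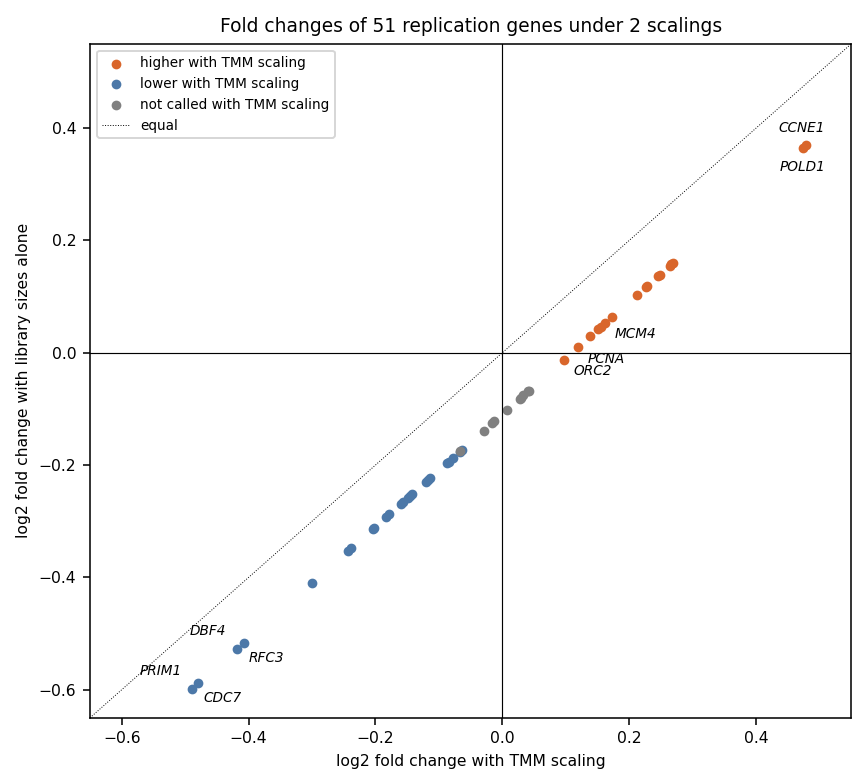
Log2 fold change of each of the 51 genes with TMM scaling (horizontal) and with library sizes alone (vertical), coloured by the call with TMM. All points lie about 0.11 below the dotted line of equality, so genes near 0 cross the horizontal axis while CDC7, PRIM1, RFC3, DBF4, POLD1 and CCNE1 keep their sign.

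Promoter sequence is shown for 6 members, because genes that share a known regulatory motif moved in both directions. RefSeq promoters (GRCh38.p14, 250 bases before to 50 after the start) matched 44 of the 51 genes; MCM4, MCM5, GINS4, POLD3, RPA2, RPA3 and CCNE2 had no entry. The E2F core was searched as TTTGGCGC, TTTGCCGC, TTTCGCGC or TTTCCCGC on both strands, counting overlapping matches. It was found in 22 of 44 member promoters (50.0%), against 5.71% of 9514 promoters of tested genes and 3.33% of all 27305 promoters. Its share was 9 of 15 among members called higher, 9 of 22 among those called lower and 4 of 7 among those not called. The octamer ATGCAAAT, the site that Oct factors bind, was in 0 of 44 member promoters, 1.33% of promoters of tested genes and 1.80% of all promoters. A match describes the letters only and does not show binding. The 250 bases before the start follow, written 5′ to 3′ on the strand of the gene, with capitals marking E2F core matches.
MCM6 (chr2:135876444-135876693, minus strand): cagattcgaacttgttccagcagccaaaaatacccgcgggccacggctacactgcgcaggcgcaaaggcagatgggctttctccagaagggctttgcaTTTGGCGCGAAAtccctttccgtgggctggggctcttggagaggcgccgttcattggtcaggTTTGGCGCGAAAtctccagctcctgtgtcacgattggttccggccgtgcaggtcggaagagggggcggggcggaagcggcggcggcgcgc
RFC3 (chr13:33817899-33818148, plus strand): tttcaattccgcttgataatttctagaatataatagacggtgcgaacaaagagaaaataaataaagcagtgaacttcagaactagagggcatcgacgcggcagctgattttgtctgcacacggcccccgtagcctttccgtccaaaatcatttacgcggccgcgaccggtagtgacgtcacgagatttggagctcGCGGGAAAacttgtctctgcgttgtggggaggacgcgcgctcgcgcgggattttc
E2F1 (chr20:33686386-33686635, minus strand): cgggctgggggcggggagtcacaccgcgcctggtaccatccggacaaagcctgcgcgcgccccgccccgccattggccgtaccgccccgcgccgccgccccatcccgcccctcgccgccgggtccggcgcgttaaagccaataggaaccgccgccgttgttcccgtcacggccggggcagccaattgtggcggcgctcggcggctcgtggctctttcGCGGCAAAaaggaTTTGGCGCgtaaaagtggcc
TYMS (chr18:657403-657652, plus strand): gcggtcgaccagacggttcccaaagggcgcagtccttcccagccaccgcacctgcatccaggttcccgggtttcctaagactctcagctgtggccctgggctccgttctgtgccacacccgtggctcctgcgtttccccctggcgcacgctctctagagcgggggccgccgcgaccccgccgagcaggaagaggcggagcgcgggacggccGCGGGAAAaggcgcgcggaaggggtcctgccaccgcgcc
CDC7 (chr1:91500601-91500850, plus strand): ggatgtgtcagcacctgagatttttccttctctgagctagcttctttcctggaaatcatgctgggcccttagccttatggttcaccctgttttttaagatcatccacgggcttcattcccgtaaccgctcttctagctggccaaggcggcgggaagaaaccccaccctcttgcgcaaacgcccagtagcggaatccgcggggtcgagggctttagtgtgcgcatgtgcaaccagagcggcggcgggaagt
DBF4 (chr7:87876243-87876492, plus strand): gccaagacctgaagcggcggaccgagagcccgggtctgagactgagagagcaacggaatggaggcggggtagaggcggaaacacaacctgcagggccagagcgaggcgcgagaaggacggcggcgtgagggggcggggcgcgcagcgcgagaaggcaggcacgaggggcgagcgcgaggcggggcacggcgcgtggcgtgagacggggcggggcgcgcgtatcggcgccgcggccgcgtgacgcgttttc
MCM6 and RFC3 fell and E2F1 and TYMS rose, and each of these 4 has at least 1 match. In MCM6 a match on each strand overlaps at 152 to 141 bases and again at 90 to 79 bases before the start. E2F1 has matches at 33 to 26 and 20 to 13 bases before the start, RFC3 at 55 to 48 and TYMS at 39 to 32. CDC7 and DBF4, 2 of the 4 genes that fell furthest, have no match in the 300-base window. PRIM1, another of those 4, has none either, and nor do POLD1 and CCNE1, which rose furthest. Lack of a match was thus found at both ends of the list.

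Licensing genes did not move as a block: 2 rose, 2 fell and 2 did not pass. ORC1, the ATPase subunit of the origin recognition complex whose level oscillates through the cell cycle, held 149, 149 and 154 CPM in the control libraries and 123, 129.7 and 128 CPM in the OBF1 shRNA libraries. Every OBF1 shRNA library lay below every control library, and the gene was 1.18-fold lower (edgeR adjusted p = 5.82e-07). ORC6, the subunit that helps load MCM rings, was 1.11-fold lower, the means being 67.6 ± 2.85 and 61.00 ± 0.0729 CPM (SD, n = 3). ORC2, a core subunit, was called higher by a narrow margin, at 48.3, 49.8 and 46.4 against 51.5, 51.05 and 52.1 CPM (edgeR adjusted p = 0.0331). That call was lost with DESeq2 (adjusted p = 0.0668) and in edgeR with upper-quartile factors (0.0812), with library sizes alone, where the log2 value was -0.013, and without control replicate 1 (0.0580), control replicate 3 (0.115), OBF1 shRNA replicate 1 (0.0588) or OBF1 shRNA replicate 3 (0.0873).

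The loading factor CDT1 and its inhibitor geminin gave different readings. CDT1, which brings MCM2-7 to the origin, held 33.3, 38.5 and 32.3 CPM in control and 38.5, 41.4 and 45.4 CPM in OBF1 shRNA libraries. Its groups touched, since control replicate 2 was slightly above OBF1 shRNA replicate 1, and the gene was 1.20-fold higher (log2 fold change 0.27, SE 0.06, edgeR adjusted p = 0.00108). GMNN, encoding geminin, which holds CDT1 inactive after origins fire, did not pass at 68.5, 69.7 and 68.97 against 65.9, 70.6 and 66.5 CPM (edgeR adjusted p = 0.466). CDC6, the ATPase that joins the origin complex to form the MCM loader, did not pass either, at 208 ± 1.19 and 214 ± 3.92 CPM (SD, n = 3). Its log2 fold change was 0.040 with TMM and -0.069 with library sizes alone, where it was called lower (edgeR adjusted p = 0.0200).

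The 6 subunits of the MCM2-7 ring, the replicative helicase, divided into 4 lower, 1 higher and 1 that did not pass. MCM2, which also binds histones at the fork, held 398, 423 and 401 CPM in control and 353, 350.4 and 357 CPM in OBF1 shRNA libraries, a 1.15-fold difference that left a clear gap between the groups (edgeR adjusted p = 1.88e-06). MCM4 went the other way, from 541, 560.2 and 559.9 CPM to 614, 629 and 616 CPM, 1.12-fold higher (edgeR adjusted p = 9.34e-06). All 3 OBF1 shRNA libraries exceeded all 3 control libraries for this subunit. MCM6 fell by 0.11 on the log2 scale, MCM3 by 0.078 and MCM7 by 0.067, all with groups that did not overlap. MCM5 lay at 473, 509.8 and 476 CPM in control and 509, 482 and 501 CPM in OBF1 shRNA libraries, with overlap.

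The small MCM7 and MCM3 calls were marginal and were lost in some fits with 1 library left out, whereas MCM2, MCM4 and MCM6 kept theirs in each such fit. MCM7 lost its call without control replicate 2 (edgeR adjusted p = 0.0845), control replicate 3 (0.0516), OBF1 shRNA replicate 2 (0.0965) or OBF1 shRNA replicate 3 (0.0530), and MCM3 without control replicate 3 (0.0537). MCM5 was called higher without control replicate 2 (edgeR adjusted p = 0.0234) and lower with library sizes alone (0.0202). Per kilobase of gene length the subunits differed far more from each other than between groups: in control libraries MCM7 stood at 272 ± 3.43, MCM3 at 198 ± 3.53, MCM4 at 113 ± 2.19, MCM2 at 109.7 ± 3.68, MCM5 at 89.3 ± 3.79 and MCM6 at 60.4 ± 1.05 CPM per kb (SD, n = 3). MCM4 and MCM2 were within their spread of each other in that order. The order of the 6 mean levels was the same in OBF1 shRNA libraries, where MCM4 had moved to 126 and MCM2 to 95.2 CPM per kb.

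Among the genes that turn the loaded ring into a running helicase, both subunits of DDK fell. CDC7, the kinase that phosphorylates the MCM ring to start origin firing, held 77.2, 75.3 and 80.1 CPM in control and 54.9, 56.8 and 54.1 CPM in OBF1 shRNA libraries (log2 fold change -0.49, SE 0.04, edgeR adjusted p = 1.07e-09). Its activating subunit DBF4 held 159, 165 and 165 CPM and 119, 128 and 121 CPM (log2 fold change -0.41, SE 0.03, edgeR adjusted p = 1.50e-09). In both genes the groups were far apart, and the fold changes were 1.40 and 1.33 downward. DBF4B, a related activator of CDC7 from the wider list below, was also lower, at 45.8 ± 0.891 and 30.97 ± 1.29 CPM (SD, n = 3, edgeR adjusted p = 1.44e-09).

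The GINS complex, which with CDC45 and MCM2-7 forms the active helicase, was divided. GINS2 held 123, 124 and 122 CPM in control and 142, 142 and 148 CPM in OBF1 shRNA libraries, 1.17-fold higher (edgeR adjusted p = 1.14e-06). GINS3 was 1.13-fold higher, a call lost with library sizes alone (edgeR adjusted p = 0.111). GINS1 was 1.09-fold lower, with control libraries at 76.8, 77.5 and 77.2 CPM and OBF1 shRNA libraries at 70.9, 71.6 and 70.5 CPM. The spread of GINS1 within each group was so small that this shift left the groups separate. GINS4 did not pass with TMM (edgeR adjusted p = 0.104) and was called lower with upper-quartile factors (0.0419) and with library sizes alone (0.000311).

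CDC45, the third part of the helicase, lay at 73.4, 70.9 and 71.03 CPM in control and 75.4, 69.1 and 72.1 CPM in OBF1 shRNA libraries. The groups overlapped and the log2 fold change was 0.0080 (SE 0.04), negative with upper-quartile factors, with library sizes alone and without OBF1 shRNA replicate 1. MCM10, which helps the helicase split and start, was 1.06-fold lower (edgeR adjusted p = 0.0218). DESeq2 did not call it (adjusted p = 0.0549), nor did edgeR without control replicate 2 (0.107), control replicate 3 (0.0642), OBF1 shRNA replicate 1 (0.0542) or OBF1 shRNA replicate 2 (0.0981).

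All 8 polymerase and primase genes passed the test, 3 higher and 5 lower, and each of the 3 polymerases had subunits on both sides. Of all tested genes 75.4% were called, and 80.2% of those averaging 10 CPM or more, with 37.5% of all tested genes higher and 37.9% lower. In polymerase alpha, the catalytic primase subunit PRIM1 held 49.7, 45.6 and 48.9 CPM in control and 34.5, 35.7 and 33.2 CPM in OBF1 shRNA libraries (log2 fold change -0.48, SE 0.05, edgeR adjusted p = 2.32e-08). Its partner PRIM2 fell from 28.4 ± 0.531 to 24.7 ± 0.637 CPM, and the catalytic polymerase subunit POLA1 from 123 ± 3.003 to 108 ± 2.75 CPM (SD, n = 3). POLA2, the accessory subunit, rose instead. Its libraries were at 79.6, 80.6 and 80.8 CPM in control and at 96.7, 96.4 and 96.2 CPM with OBF1 shRNA, a narrow spread, and it was 1.20-fold higher (edgeR adjusted p = 3.37e-07).

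POLD1, the catalytic subunit of polymerase delta, which extends the lagging strand, held 82.4, 91.5 and 78.3 CPM in control and 115, 112 and 123 CPM in OBF1 shRNA libraries. It was 1.39-fold higher (log2 fold change 0.47, SE 0.05, edgeR adjusted p = 4.28e-08), and the lowest OBF1 shRNA library lay well above the highest control library. The accessory subunit POLD3 was 1.09-fold lower (edgeR adjusted p = 0.00963), a call lost without control replicate 3 (0.0956). For polymerase epsilon, which extends the leading strand, the catalytic gene POLE held 213, 198 and 202 CPM in control and 184, 186 and 178 CPM in OBF1 shRNA libraries, 1.12-fold lower. Its second subunit POLE2 held 25.6, 24.8 and 25.4 CPM and 28.7, 28.97 and 31.98 CPM, 1.19-fold higher. POLE fell and POLE2 rose with groups that did not overlap (edgeR adjusted p = 0.000116 and 0.000281).

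The clamp gene rose slightly while most of its loader fell. PCNA, the ring that tethers polymerases to DNA, held 807, 840.4 and 814 CPM in control and 891, 877 and 905 CPM in OBF1 shRNA libraries, 1.09-fold higher (edgeR adjusted p = 0.000288). With library sizes alone that difference was 0.010 on the log2 scale and not called (edgeR adjusted p = 0.688). It was the most abundant of the 51 transcripts per length, at 391 ± 8.48 CPM per kb in control libraries (SD, n = 3). Of the replication factor C subunits that open and load the clamp, 4 fell and 1 rose.

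RFC3 held 162, 151 and 161 CPM in control and 127, 114 and 114 CPM in OBF1 shRNA libraries, 1.34-fold lower (edgeR adjusted p = 2.02e-08). OBF1 shRNA replicate 1 was the highest of its group yet below every control library. RFC1, the large subunit, held 215, 225 and 229.7 CPM and 177, 186 and 181 CPM, 1.23-fold lower (edgeR adjusted p = 4.23e-08). RFC4 and RFC5 moved nearly alike, by -0.14 and -0.15 on the log2 scale. RFC2 was 1.11-fold higher, at 85.2 ± 2.35 and 94.6 ± 3.05 CPM (SD, n = 3), and lost its call with library sizes alone (edgeR adjusted p = 0.276).

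Of the enzymes that finish Okazaki fragments, the flap nuclease gene FEN1 rose and the ligase gene LIG1 did not pass. FEN1 held 218, 228 and 218 CPM in control and 259, 256 and 261 CPM in OBF1 shRNA libraries, 1.17-fold higher (edgeR adjusted p = 3.82e-07). LIG1 held 103, 101 and 98.9 CPM and 98.3, 104 and 96.9 CPM, with overlap. In replication protein A, the trimer that coats single-stranded DNA, RPA2 fell, with means of 155 ± 0.653 and 137 ± 3.30 CPM (SD, n = 3, edgeR adjusted p = 1.52e-05). RPA1 was called lower by 0.064 on the log2 scale (edgeR adjusted p = 0.0295), and RPA3 did not pass (0.475). The RPA1 call was lost with DESeq2 (adjusted p = 0.0528), without the low-count filter (0.0685) and without control replicate 2 (0.165), control replicate 3 (0.0786), OBF1 shRNA replicate 2 (0.112) or OBF1 shRNA replicate 3 (0.0692).

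Of the 4 nucleotide supply genes among the members, TYMS and TK1 were called higher, RRM1 lower and RRM2 did not pass. TYMS, thymidylate synthase, held 259, 269 and 263 CPM in control and 309.6, 322 and 320.3 CPM in OBF1 shRNA libraries, 1.20-fold higher with a wide gap between groups (edgeR adjusted p = 3.72e-08). TK1, the S phase thymidine kinase, was 1.10-fold higher at 92.00, 93.9 and 85.1 and 103, 94.2 and 102 CPM (edgeR adjusted p = 0.00499), with control replicate 2 just below OBF1 shRNA replicate 2. With library sizes alone TK1 was not called (0.511). RRM1, the large subunit of ribonucleotide reductase, was 1.06-fold lower, while RRM2, the S phase subunit, did not pass at 226 ± 3.69 and 232 ± 3.15 CPM (SD, n = 3, edgeR adjusted p = 0.147). RRM2 was called lower with library sizes alone (edgeR adjusted p = 0.0211).

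The 3 regulators of S phase entry among the members were called higher, whereas the wider list described below held regulators called in both directions. Of its 27 genes of S phase control 18 were lower and 7 higher. The E2F1 relatives E2F2 (-0.45 on the log2 scale, edgeR adjusted p = 1.30e-10) and E2F3 (-0.24, 1.61e-06) were lower. CDK2 (0.35, edgeR adjusted p = 1.85e-08) and E2F8 (0.14, 0.00296) were higher. E2F1, the activator of much of this programme, held 189, 186 and 185 CPM in control and 227, 219 and 219 CPM in OBF1 shRNA libraries, 1.19-fold higher (edgeR adjusted p = 1.11e-07). CCNE1, the cyclin that drives CDK2 at the G1/S boundary, held 15.5, 15.1 and 16.2 CPM and 23.6, 19.7 and 21.99 CPM (log2 fold change 0.48, SE 0.07, edgeR adjusted p = 3.32e-06). All OBF1 shRNA libraries lay above the control libraries for both genes, and the spread of CCNE1 was wider in the OBF1 shRNA group. CCNE2, the second cyclin E, was 1.11-fold higher (edgeR adjusted p = 0.00877) and lost its call without OBF1 shRNA replicate 2 (0.0634) and with library sizes alone (0.413).

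The remaining members of this group were mixed. HELLS, a chromatin remodeller needed for DNA methylation, held 59.4, 57.3 and 58.7 CPM in control and 67.2, 69.3 and 66.8 CPM in OBF1 shRNA libraries, 1.16-fold higher. SLBP, which binds the stem-loop of histone mRNA and is made in S phase, held 192, 193 and 192 CPM and 166, 159 and 163 CPM, 1.18-fold lower (edgeR adjusted p = 2.28e-07). DTL, the adaptor of the ubiquitin ligase that destroys CDT1 in S phase, was 1.12-fold lower at 113 ± 2.21 and 102 ± 0.561 CPM (SD, n = 3). UHRF1, which guides maintenance DNA methylation to new strands, lay at 97.1 ± 3.23 and 99.01 ± 1.51 CPM and did not pass. CLSPN, encoding the checkpoint mediator claspin, did not pass either, at 161 ± 1.82 and 159.9 ± 3.32 CPM (SD, n = 3). With library sizes alone both were called lower.

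Partners of 1 complex therefore shifted against each other, and such a ratio within a library does not depend on how libraries are scaled. For 11 complexes or functional pairs, the member with the highest fold change was divided by the one with the lowest, per length. Since the pairs were picked for their difference, the ratios are a description with no test. POLA2 to PRIM1 stood at 0.648, 0.715 and 0.668 in the control libraries and 1.13, 1.09 and 1.17 in the OBF1 shRNA libraries, a mean 1.67 times as high. POLD1 to POLD3 went from 1.28, 1.49 and 1.16 to 1.96, 1.89 and 2.05, and RFC2 to RFC3 from 1.07, 1.17 and 1.14 to 1.51, 1.79 and 1.72. These 3 ratios differed most between the groups.

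MCM4 to MCM2 stood at 1.03, 1.001 and 1.06 in control and 1.31, 1.36 and 1.30 in OBF1 shRNA libraries. That the control ratio lies near 1 rests on the deposited gene lengths. Without them the control means were 554 CPM for MCM4 and 407 CPM for MCM2. POLE2 to POLE went from 0.579, 0.602 and 0.605 to 0.752, 0.751 and 0.864. GINS2 to GINS1 went from 3.33, 3.33 and 3.29 to 4.18, 4.12 and 4.36. DBF4 to CDC7, at 1.80, 1.91 and 1.80 and 1.90, 1.97 and 1.95, was the 1 ratio whose groups overlapped, as both DDK genes fell together. In 7 of the 11 some members were called higher and others lower, where 37.5% of all tested genes were called higher and 37.9% lower. How often sets of other genes of these sizes would hold calls in both directions was not tested.

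**Figure D4:**
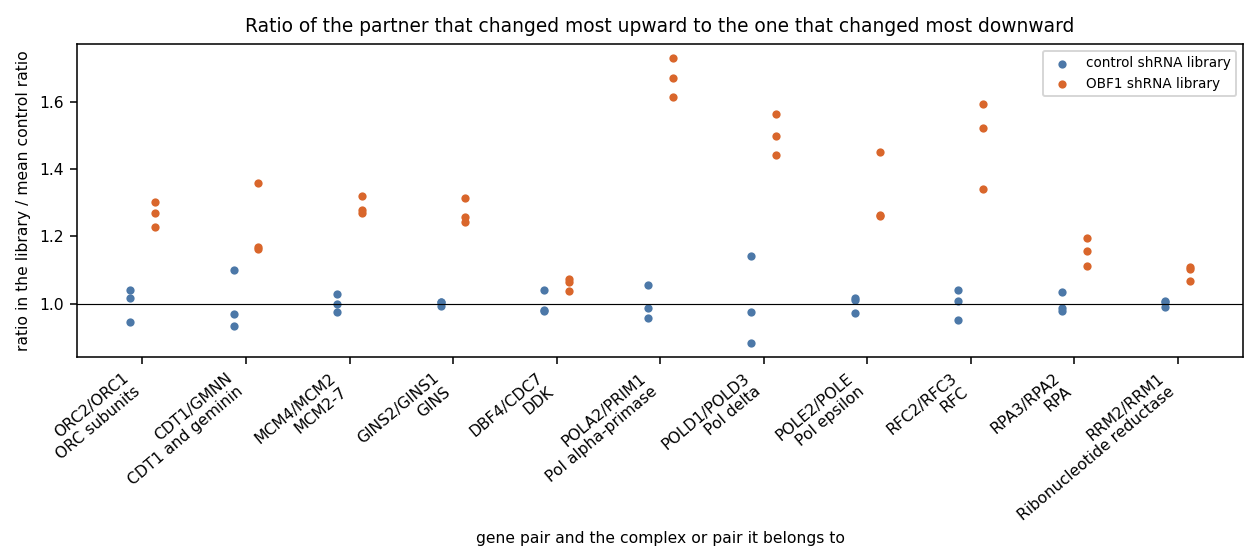
Each point is 1 library: the per-length ratio of 2 genes of a complex or pair, divided by the mean control ratio, for 11 complexes or pairs along the horizontal axis. OBF1 shRNA libraries lie above all control libraries in 10 of 11, a direction fixed by how the pairs were picked, and overlap them for DBF4 to CDC7.

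Further genes of replication and S phase control, 77 from a list of 6 groups, also moved in both directions. Of 76 tested, 25 were higher, 39 lower and 12 did not pass (37.5% of all tested genes were higher and 37.9% lower), with a median log2 fold change of -0.087 and a median size of 0.23. With library sizes alone 17 were higher and 48 lower, where all tested genes gave 28.9% and 48.1%. At least 1.5-fold changes were called for 2 higher and 3 lower genes, against 12.9% and 10.4% of all tested genes. The highest was SAMHD1, which degrades deoxynucleotides, 1.65-fold higher at 63.5 ± 2.60 and 105 ± 4.08 CPM (SD, n = 3, edgeR adjusted p = 6.72e-12). RNASEH2C, a subunit of the nuclease that removes ribonucleotides from DNA, was 1.56-fold higher. CKS1B, a CDK-binding partner of the SKP2 ligase, was 1.97-fold lower at 72.6 ± 0.950 and 36.9 ± 1.73 CPM (SD, n = 3), and RRM2B, the p53-induced reductase subunit, 1.91-fold lower at 238 ± 2.81 and 125 ± 4.64 CPM (SD, n = 3). The third gene lower by that size, mitochondrial thymidine kinase TK2, was near the filter at 0.557 and 0.266 CPM and was not called by DESeq2 (adjusted p = 0.0577).

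By group, polymerase and fork genes gave 5 higher and 4 lower of 13. POLD4, the smallest subunit of polymerase delta, rose by 0.58 on the log2 scale, and POLE3, a histone-fold subunit of polymerase epsilon, fell by 0.49, as did topoisomerase gene TOP2A by 0.31. Licensing and initiation genes gave 1 higher, the replisome assembly factor DONSON (0.22), and 7 lower of 11, led by DBF4B (-0.56) and MTBP (-0.46). Of 27 genes of S phase control 7 were higher and 18 lower, beside 37.5% and 37.9% of all tested genes. E2F4, mainly a repressor of the family, rose by 0.49 and RB1, the retinoblastoma protein that restrains E2F, by 0.36, while WDR48, a cofactor of the PCNA deubiquitinase USP1, fell by 0.54.

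Chromatin assembly genes gave 3 higher and 4 lower of 9. NASP, a histone chaperone, rose by 0.27 and TONSL by 0.17, while its partner MMS22L fell by 0.56 and the histone chaperone gene ASF1A by 0.37. TONSL lost its call with library sizes alone (edgeR adjusted p = 0.320) and without control replicate 3 (0.0552). Nucleotide supply gave 7 higher and 4 lower of 11. DTYMK, the thymidylate kinase that acts after TYMS and TK1, was lower, at 103 ± 4.82 and 89.1 ± 2.74 CPM (SD, n = 3, edgeR adjusted p = 7.02e-05). Clamp loaders and unloaders gave 2 higher and 2 lower of 5: the PCNA-associated factor PCLAF (0.36) and CHTF18 (0.13), of an alternative loader, were higher, its partner DSCC1 (-0.28) and the PCNA unloader gene ATAD5 (-0.17) lower. CHTF18 overlapped between groups and lost its call with upper-quartile factors (edgeR adjusted p = 0.0640), with library sizes alone (0.684), with the replicate block (0.0820), without control replicate 3 (0.198) and without OBF1 shRNA replicate 3 (0.160).

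Some members share sequence with other genes, and how such reads were counted is not given. In the GENCODE 29 annotation 16 of the 51 share at least 100 exon bases with another gene. On the same strand, where a stranded kit cannot separate reads, POLA2 shares 2012 bases with another annotated protein-coding gene, RRM2 1077, POLD1 426 and PRIM1 362. These 4 partners have clone-based names, while the tested genes were named by RefSeq symbol. A search by name could therefore not find them, and its outcome says nothing about shared reads. PRIM1 also shares 123 bases with HSD17B6 on the opposite strand, which was also lower (log2 fold change -0.94, mean 13.2 CPM). CCNE2 shares 1629 bases with INTS8 on the opposite strand, which was higher (0.21, 87.3 CPM). TYMS shares 967 bases with ENOSF1, which held 0 to 2 counts per library. The part of these overlaps in the values was not tested. Pseudogenes of DBF4, PCNA, RFC3, RRM2, TYMS and other members are annotated, and 1 of them, of PCNA, had a row in the table, with 0 counts.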

How the data were processed

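The authors deposited 1 table of raw read counts per gene, unnormalised, together with gene lengths in bases (headed width, per the file headers). A stranded mRNA kit was used, per the labels' protocols. The submitters' processing notes list hg19 and mm9; aligner, counter, annotation and strand setting: not given in the sources used here. Of 23459 rows, 23308 matched a symbol by gene ID in a RefSeq table of GRCh38.p14, a build used only for names, promoters and overlaps; the 151 others held 0.115% to 0.138% of counts and stayed in. All 6 count columns were used and 0 left out.

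Counts were filtered with filterByExpr (min.count 10, min.total.count 15), leaving 12010 genes, scaled by TMM and compared over all genes by the quasi-likelihood F test of edgeR 4.0.16 in R 4.3.3 (3 libraries against 3, no covariate, Benjamini-Hochberg, threshold 0.05). Standard errors are the log2 fold change over the square root of F. CPM per kb uses the deposited lengths. The common BCV (biological coefficient of variation) was 0.0269. In simulated counts for this comparison (11940 genes) the fit recovered 85.7% of 49 genes changed 1.25-fold and 88.0% of 50 changed 1.5-fold. Of its calls 6.57% were unchanged genes. Only 49 or 50 tested genes were changed at each fold (1.25, 1.5, 2 and 4), and every gene was given the common BCV. In the data 75.4% of tested genes were called, so these rates need not hold for the calls made here. Replicates differed by more than counting noise (chi-square per degree of freedom 1.89 to 3.28).

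Members and lists were chosen with earlier results of these data known. Named genes are the 51 members, POU2AF1, and up to 2 called genes per direction with the largest change from each group of further genes; POU2F1 and POU2F2, also in that rule, are not described, 1 further gene under it is not reported here, and HSD17B6, INTS8, ENOSF1, DTYMK, E2F2, E2F3, MS4A1 and CD79B were named after their values were seen. The motif search, the ratios within complexes and the 10 CPM background were added after the data were seen. Alternatives were DESeq2 1.42.0, limma-voom (limma 3.58.1), RLE and upper-quartile factors, library sizes alone, no filter beyond 1 count, 1 CPM in 3 libraries, glmTreat at 1.5-fold, a replicate block and leaving out each library.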

Additional observations from a re-analysis of the deposited data

How the results depend on the processing

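With library sizes alone 11 members were called higher in place of 17 and 34 lower in place of 24, and of all 12010 tested genes 3476 higher in place of 4508 and 5778 lower in place of 4550. Against a 1.5-fold change (glmTreat), 0 members were called higher and 0 lower, 1 and 2 of the further replication genes, and 1967 of all genes, 1180 higher and 787 lower. Leaving out 1 library gave 16 to 18 members higher and 19 to 24 lower, 8632 to 8974 called genes in all, and a POU2AF1 log2 fold change of -1.09 to -1.08. Signs turned with library sizes alone for ORC2 (-0.013), CDC6 (-0.069), MCM5 (-0.076), CDC45 (-0.10), RPA3 (-0.080), RRM2 (-0.067) and UHRF1 (-0.082). For genes that did not pass, signs also turned for CDC45 with upper-quartile factors (-0.012) and without OBF1 shRNA replicate 1, for LIG1 without control shRNA replicate 1 or OBF1 shRNA replicate 3, and for CLSPN without OBF1 shRNA replicate 1. The 41 member calls were all kept with limma-voom, RLE factors and the 1 CPM filter, and 38 with DESeq2. Replicate numbers are not said to pair libraries, and deviations of same-numbered libraries correlated at 0.03, -0.17 and -0.11. With the replicate block 39 member calls were kept, and ORC2 (edgeR adjusted p = 0.0585) and RPA1 (0.0615) were lost. That left 16 members higher and 23 lower. Further genes gave 24 higher and 35 lower in place of 25 and 39, with CHTF18 (0.0820) among the calls lost. In all, 8759 genes were called. With 1 library left out CDC45 ranged from -0.022 to 0.041, LIG1 from -0.046 to 0.0083 and CLSPN from -0.024 to 0.0051 on the log2 scale. The smallest member change called was -0.064 (RPA1) and the largest not called -0.067 (GINS4).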
